A study of Mus musculus with 6 samples.

Results

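Open chromatin was examined around 7 genes for transcription factors that specify dorsal forebrain identity, *Emx1*, *Emx2*, *Pax6*, *Lhx2*, *Otx1*, *Tbr1* and *Eomes*. The loci were chosen by gene, as each gene body with 100 kb on each side, and every peak that overlapped such a window was taken. Peaks of the 6 libraries that overlapped by at least 1 bp were merged into regions, which gave 87 regions in the 7 loci among 120143 in the genome. The assay was ATAC-seq, which marks open DNA by the insertions of a transposase, and the cells were neural stem cell (NSC) cultures grown from the subependymal zone (SEZ) of C57BL/6J mice 10 weeks old.

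All 6 libraries came from *Srr2* del/del mice, in which CRISPR-Cas9 had removed *Srr2*, an enhancer downstream of *Sox2*. The states were therefore compared within the mutant, and wild-type libraries are not analysed here. The proliferating state (PROLIF) had 2 days in vitro (DIV) with FGF on Matrigel by the sample labels, which were followed, while the text for the whole series gives 3 DIV. The early differentiating state (DIFF) had the same 2 DIV and then 1 day without mitogens, in a small amount of serum. Each state had 3 libraries, numbered 1, 2 and 4. The *Srr2* deletion had been made with different guide pairs in separate founder strains, and the labels did not give the strain of each library. The promoters of all 8 neural stem and progenitor markers examined, among them *Sox2* and *Nes*, held a peak in every library. Promoter peaks were missing in every library for *Dcx* (neuroblasts), *Sox10* (oligodendrocyte lineage), *Cx3cr1* and *Itgam* (microglia) and *Cdh5*, *Cldn5* and *Tek* (endothelium).

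In the embryonic forebrain, *Emx1*, *Emx2*, *Pax6*, *Lhx2* and *Otx1* encode homeodomain proteins of progenitors in the dorsal telencephalon, which builds the cortex and hippocampus. *Eomes* (also called *Tbr2*) and *Tbr1* encode T-box factors that follow in the glutamatergic lineage, *Eomes* in intermediate progenitors and *Tbr1* in postmitotic deep-layer neurons. In the adult SEZ, stem cells of the dorsal wall derive from the *Emx1* lineage, and *Pax6* acts in neuroblasts that form dopaminergic interneurons of the olfactory bulb.

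Lists ran from 60006 to 82741 peaks in PROLIF, with replicate 1 the longest, and from 70728 to 88039 in DIFF, with replicate 4 the longest. The background pileup, the number of reads the caller expected by chance in the emptiest parts, stood in for depth and was 2.85 to 2.97 reads in PROLIF libraries and 2.96 to 6.01 reads in DIFF libraries. DIFF replicate 4 was the deepest. Depth tended to be higher in DIFF, and its part in the results was not tested. For that reason peaks were compared by their percentile in the list of their own library, ranked by the caller's −log10 p, where 100 is the strongest peak. The fold enrichment given for a peak is its pileup over the local background of the same library.

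In 10 regions, the ranks did not overlap between the states, or every DIFF library and no PROLIF library had a peak. The sequences below show 7 of these, chosen after their values were seen so that each pattern is shown. Each is the 201 bases around the summit of its best-ranked peak, on the plus strand of GRCm38. Capitals mark matches to the motifs spelled out further down. The first pair lies 64.1 kb (chr2:105604683-105604883) and 56.5 kb (chr2:105612335-105612535) upstream of the first annotated start of *Pax6*, in introns of the antisense gene *Pax6os1*, and the next lies 56.1 kb downstream of the *Lhx2* start (chr2:38395302-38395502), between genes. All of these ranked lower in every DIFF library than in any PROLIF library.
Pax6 −64.1 kb: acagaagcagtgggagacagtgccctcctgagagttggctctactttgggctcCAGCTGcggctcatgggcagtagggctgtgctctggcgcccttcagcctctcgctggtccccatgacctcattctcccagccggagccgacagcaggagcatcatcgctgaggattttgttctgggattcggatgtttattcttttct
Pax6 −56.5 kb: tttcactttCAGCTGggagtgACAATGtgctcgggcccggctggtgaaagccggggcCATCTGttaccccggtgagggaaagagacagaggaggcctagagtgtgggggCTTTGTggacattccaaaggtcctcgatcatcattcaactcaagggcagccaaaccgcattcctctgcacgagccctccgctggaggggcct
Lhx2 +56.1 kb: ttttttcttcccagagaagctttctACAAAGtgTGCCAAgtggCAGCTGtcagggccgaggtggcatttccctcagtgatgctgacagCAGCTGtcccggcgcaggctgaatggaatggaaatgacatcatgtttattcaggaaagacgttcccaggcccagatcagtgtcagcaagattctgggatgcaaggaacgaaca
The following sequence lies 115.1 kb downstream of the *Emx1* start, in an intron of *Sfxn5* (chr6:85302415-85302615), and ranked higher in DIFF. The last 3 had peaks in DIFF libraries alone, 39.4 kb downstream of the *Emx1* start in an intron of *Sfxn5* (chr6:85226711-85226911), 27.1 kb downstream of the *Lhx2* start in an *Lhx2* intron (chr2:38366257-38366457) and 55.3 kb upstream of the *Tbr1* start in an intron of *Psmd14* (chr2:61747488-61747688).
Emx1 +115.1 kb: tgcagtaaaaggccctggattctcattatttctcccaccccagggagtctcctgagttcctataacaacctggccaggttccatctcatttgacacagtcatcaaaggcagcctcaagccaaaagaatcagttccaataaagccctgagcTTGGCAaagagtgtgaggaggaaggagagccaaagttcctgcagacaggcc
Emx1 +39.4 kb: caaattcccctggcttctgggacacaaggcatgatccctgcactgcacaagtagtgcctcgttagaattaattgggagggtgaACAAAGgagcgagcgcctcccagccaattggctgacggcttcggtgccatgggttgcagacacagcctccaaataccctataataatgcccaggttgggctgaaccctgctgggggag
Lhx2 +27.1 kb: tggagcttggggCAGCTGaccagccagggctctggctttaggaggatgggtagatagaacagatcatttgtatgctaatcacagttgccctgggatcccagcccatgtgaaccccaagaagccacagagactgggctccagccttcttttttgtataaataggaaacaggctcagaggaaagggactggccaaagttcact
Tbr1 −55.3 kb: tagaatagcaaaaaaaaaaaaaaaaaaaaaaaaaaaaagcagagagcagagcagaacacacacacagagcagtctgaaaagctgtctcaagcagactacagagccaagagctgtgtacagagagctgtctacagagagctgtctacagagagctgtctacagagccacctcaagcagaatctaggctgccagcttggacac

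Which regions of these loci were open in both states was asked first. Of the 87 regions, 30 (34.5%) held a peak in all 6 libraries, against 40164 of 120143 (33.4%) in the genome. These constant regions were wide, with a median of 906 bp, while the other 57 had a median of 225 bp. Another 19 regions (21.8%) held a peak in a single library, against 29.7% in the genome. PROLIF replicate 1 and DIFF replicate 4, the longest lists, each supplied 7 of these 19.

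On GRCm38, with the gene models of GENCODE M21, *Emx1* lies at chr6:85187438-85204462, *Emx2* at chr19:59458372-59465357, *Pax6* at chr2:105668900-105697364, *Lhx2* at chr2:38339281-38369733, *Tbr1* at chr2:61802930-61814114 and *Eomes* at chr9:118478212-118486132, all on the plus strand, and *Otx1* at chr11:21994764-22002897 on the minus strand. The windows differed in how many regions they held. *Emx1* had 19 regions, 7 of them constant. *Lhx2* had 17 with 5 constant, *Emx2* had 13 with 4 constant and *Eomes* had 12 with 4 constant. *Pax6* had 11 regions, of which 6 were constant, while *Tbr1* had 9 and *Otx1* had 6, each with 2 constant. By overlap of the whole region, 8 of the 87 touched coding exons, 8 others exonic untranslated sequence and 7 others noncoding exons alone. Of the rest, 39 lay in introns and 25 between genes.

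**Figure D1:**
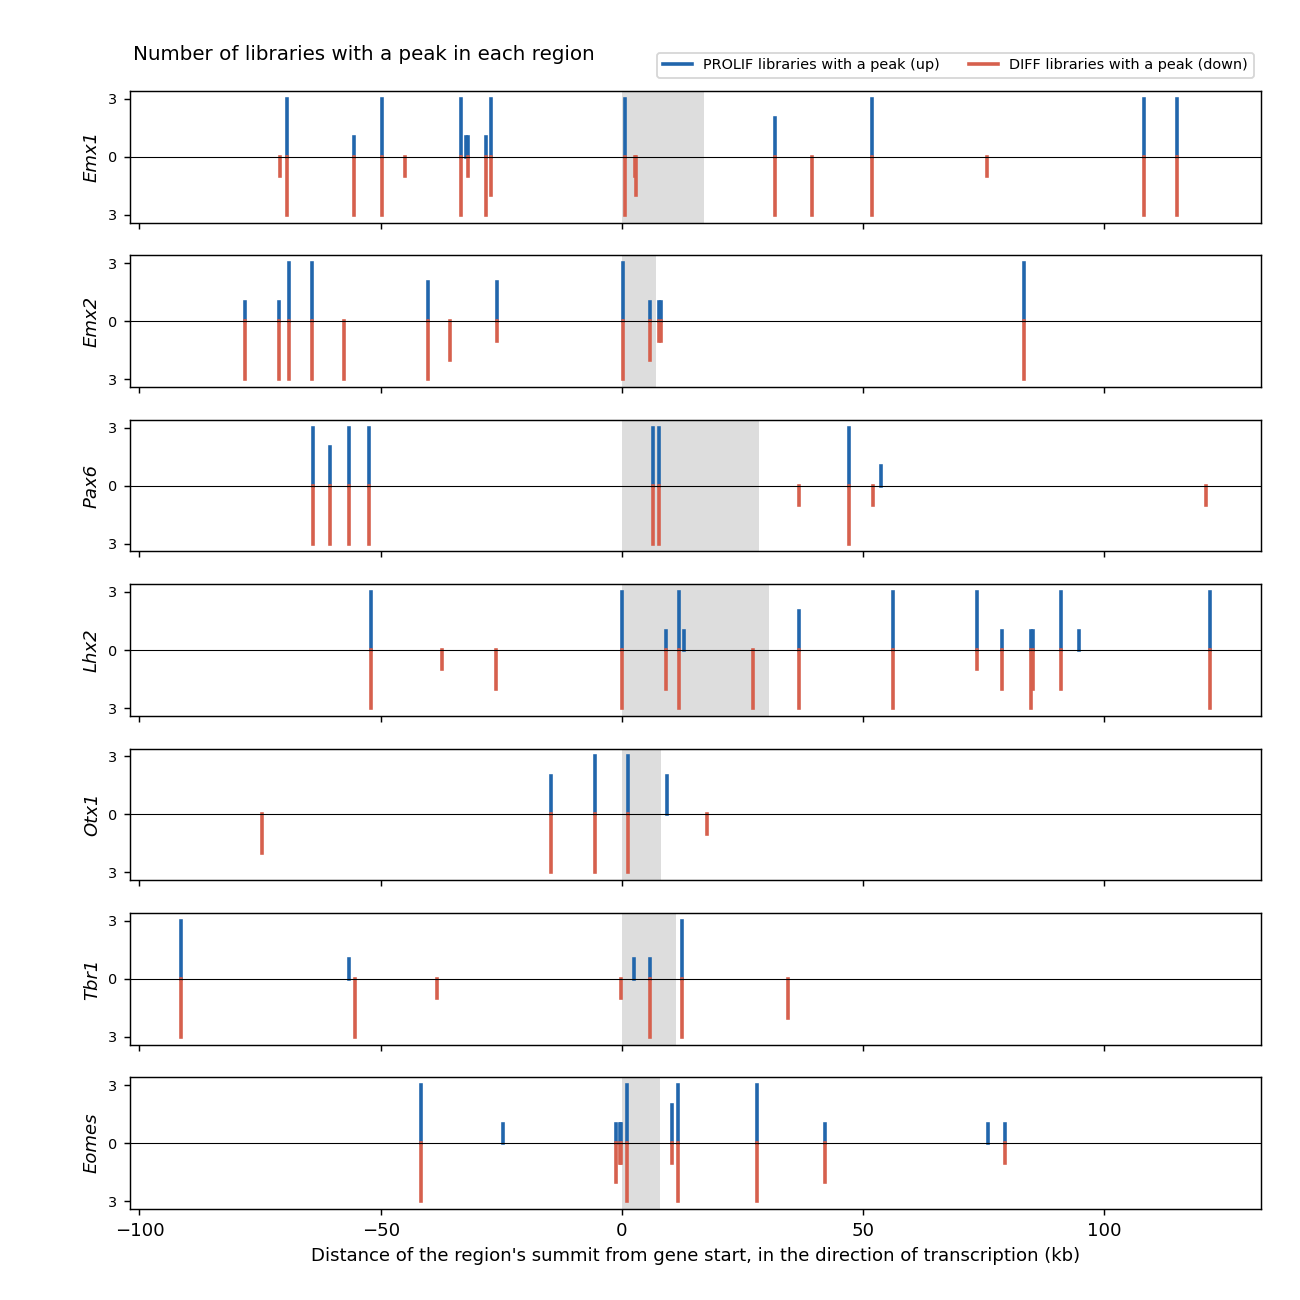
Number of libraries with a peak in each of the 87 regions, by distance of the region's summit from the gene start in kb, in the direction of transcription. Upward bars count PROLIF libraries and downward bars DIFF libraries, each of 3, and grey marks the gene body. Full bars in both directions are the 30 constant regions. Downward bars of 3 with nothing above are the 4 regions with a peak in every DIFF and no PROLIF library.

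Regions within 3 kb of a start site of the member gene numbered 19, and 8 of these (42.1%) were constant. Another 20 regions lay within 3 kb of the start of a different gene, with 8 constant (40.0%). The other 48 were distal, and 14 of them (29.2%) were constant. Some of the strongest peaks in the windows belonged to neighbours, such as *Dennd1a* beside *Lhx2* (percentile 91.9 to 95.2 in the 6 libraries), *Psmd14* beside *Tbr1* (88.9 to 95.2) and *Spr* beside *Emx1* (76.9 to 87.9).

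The promoter of *Lhx2*, a LIM-homeodomain selector of cortical fate, carried the strongest promoter peak of the 7 genes. Its percentiles were 95.9, 95.2 and 93.1 in PROLIF replicates 1, 2 and 4 and 93.4, 93.2 and 95.5 in DIFF replicates 1, 2 and 4. In bulk cultures, the share of cells with an open site and its openness per cell cannot be told apart. All libraries were high and the states overlapped (mean 94.7 ± 1.47 in PROLIF and 94.0 ± 1.26 in DIFF, SD, n = 3). This peak (chr2:38350514-38351975, fold 10.4 to 13.4) lay at internal starts 11478 and 12487 bp downstream of the first *Lhx2* start. At the first start itself the peak (chr2:38339050-38339935) ranked at 62.1 to 73.4.

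*Otx1*, a homeodomain gene of the forebrain and later of deep-layer neurons, came next. Its promoter peak (chr11:22001296-22002426, fold 8.75 to 13.3) had percentiles of 93.5, 89.2 and 86.2 in PROLIF and 91.7, 93.8 and 95.5 in DIFF. The states overlapped, since PROLIF replicate 1 lay above DIFF replicate 1 (difference of means 4.01, two-sided exact permutation p = 0.2, n = 3 per state).

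The *Pax6* promoter peak was at percentile 91.7, 84.8 and 84.3 in PROLIF and 89.8, 87.6 and 92.3 in DIFF, again with overlap (difference of means 2.97, exact permutation p = 0.3, n = 3). *Pax6* encodes a paired-box homeodomain protein of radial glia, and its annotation lists 24 start sites. No library had a peak within 500 bp of the 5 most upstream of them. The strongest peak (chr2:105674614-105675772, fold 8.03 to 10.8) covered start sites 6209 to 6627 bp downstream of the first, and a second, weaker constant region (chr2:105676171-105677074) followed at percentile 28.7 to 50.3. None of the starts further downstream, from 9491 bp on, had a peak within 500 bp in any library.

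At *Emx2*, the homeobox gene needed for hippocampal growth, the promoter peak (chr19:59457426-59458821) was shared with the start of the antisense gene *Emx2os*. Percentiles were 82.7, 78.8 and 64.6 in PROLIF and 75.7, 82.5 and 82.1 in DIFF, so PROLIF replicate 4 lay below the other 5 libraries (difference of means 4.76, exact permutation p = 0.7, n = 3).

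*Eomes* had an intermediate promoter peak (chr9:118478497-118479345) over coding sequence just after the start. Its percentiles were 63.7, 42.7 and 60.1 in PROLIF and 71.1, 39.4 and 60.1 in DIFF, with as much spread within as between states (difference of means 1.39, exact permutation p = 1, n = 3). In each state replicate 2 was the lowest.

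*Emx1*, the marker gene of the cortical lineage, had a weak promoter peak in every library. Its percentiles were 23.0, 40.9 and 26.0 in PROLIF and 39.7, 42.7 and 20.0 in DIFF (difference of means 4.14, exact permutation p = 0.9, n = 3), with a fold enrichment of 2.99 to 5.34. The peak (chr6:85187587-85188207) began 149 bp past the first start. Among the 14126 protein-coding genes with a promoter peak in all 6 libraries (64.4% of 21938), only 0.92% had a lower mean percentile than *Emx1*, against 8.25% for *Eomes*, 30.1% for *Emx2*, 56.0% for *Pax6*, 66.5% for *Otx1* and 76.6% for *Lhx2*.

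*Tbr1* differed from the other members in lacking a constant promoter peak. Within 3 kb of a *Tbr1* start, PROLIF replicate 1 had a peak at percentile 23.0 and the other PROLIF libraries had none, while DIFF replicates 1, 2 and 4 had peaks at 57.0, 16.9 and 46.9. The DIFF peaks lay in a *Tbr1* intron 5.9 kb downstream of the first start (chr2:61808725-61808985), where PROLIF replicate 1 was also present at 20.5. Within 500 bp of the first start, a single library, DIFF replicate 4, had a peak, at percentile 6. With 4 of 6 libraries no test of rank was made.

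**Figure D2:**
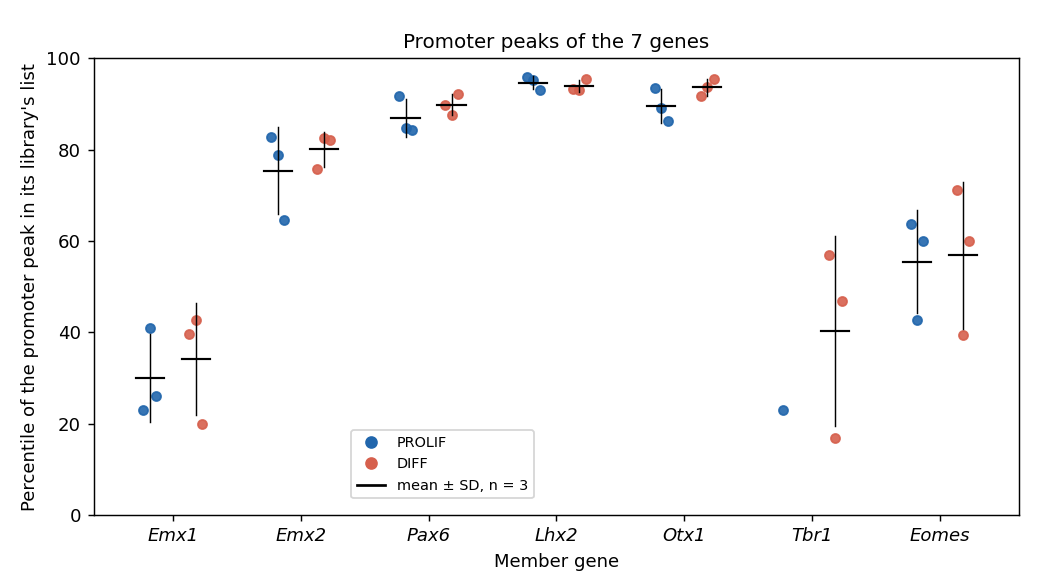
Percentile of the strongest peak within 3 kb of a start site of each gene (y axis, 0 to 100) in each library; points are libraries, black bars the mean ± SD of 3. *Lhx2*, *Otx1* and *Pax6* lie at 84.3 or above in every library, *Emx1* at 42.7 or below, and *Tbr1* has no peak in PROLIF replicates 2 and 4.

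The order of the promoter ranks was *Lhx2*, *Otx1*, *Pax6*, *Emx2*, *Eomes*, *Emx1*. The ranges over libraries of *Lhx2* and *Otx1* overlapped, as did those of *Otx1* and *Pax6*, and those of *Emx2* and *Eomes* (64.6 to 82.7 and 39.4 to 71.1). *Eomes* and *Emx1* also overlapped, through DIFF replicate 2. The *Pax6* range lay above that of *Emx2* in all libraries. These order the strength of the called peaks and not the expression of the genes, which was not analysed here.

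The RefSeq promoter table of GRCm38.p6 matched 6 of the 7 genes, with 8 promoters of 250 bases before to 50 after a start; *Otx1* was not matched. At *Emx1*, base composition did not follow the order of the peaks. The *Emx1* promoter had 74.0% GC and 37 CpG dinucleotides although its peak was weak, and *Lhx2* had 74.7% and 34 at its first start and 69.3% and 29 at the internal start. *Emx2* had 64.3% GC and 26 CpGs, and the first *Pax6* start, which had no peak, had 58.7% and 18. The other matched *Pax6* promoter, also at a start without a peak, had 46.3% and 16. The *Pax6* peak itself therefore has no composition value here. *Tbr1* and *Eomes* had 46.0% and 47.3% GC, both below the median of all 32851 promoters, 52.7%, with 7 and 10 CpGs against a median of 7.

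Next, the number of peaks in each window was compared between the states. Since the lists differed in length, the number was set per 10000 peaks of the list. Summed over the 7 windows, the libraries held 63, 43 and 41 peaks in PROLIF and 58, 59 and 70 in DIFF, or 7.61, 6.45 and 6.83 per 10000 in PROLIF and 8.13, 8.34 and 7.95 in DIFF. The means were 6.97 ± 0.592 and 8.14 ± 0.196 (SD, n = 3), a difference of 1.18 per 10000, with no overlap between the states. The sum over chosen genes was given no test. Among the strongest 20000 peaks of each list the difference was of the opposite sign, -1.67 per 10000, so the higher numbers in DIFF were found among the weaker peaks.

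Of the 7 windows, 4 held more peaks per 10000 in every DIFF library than in every PROLIF library and none held fewer, against 10.1% and 9.38% of the windows of all protein-coding genes. The 4 windows were those of *Emx1*, *Emx2*, *Pax6* and *Tbr1*, and each reached the smallest p that 3 against 3 libraries allow, an exact permutation p = 0.1, so that no single gene could pass 0.05. Among the strongest 20000 peaks of each list no window held more in every DIFF library (10.1% of all genes) and 2 held fewer, those of *Lhx2* and *Pax6* (5.88% of all genes). Windows that hold few peaks move in steps of a whole peak.

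The *Emx1* window had 13, 8 and 9 peaks in PROLIF and 13, 13 and 16 in DIFF, or 1.57, 1.2 and 1.5 per 10000 in PROLIF and 1.82, 1.84 and 1.82 in DIFF. The DIFF libraries were nearly equal and all above PROLIF (mean 1.42 ± 0.197 and 1.83 ± 0.0107). In the *Emx2* window the values were 1.09, 0.90 and 1.17 per 10000 in PROLIF and 1.26, 1.56 and 1.36 in DIFF, a difference of means of 0.342. With 50 kb on each side the *Emx2* difference was 0.0697 and the states overlapped (exact permutation p = 0.7, n = 3). The *Pax6* window had 8, 7 and 6 peaks in PROLIF and 9, 8 and 10 in DIFF, a difference of 0.171 per 10000. The smallest window by peak number in PROLIF, *Tbr1*, had 5, 2 and 3 peaks in PROLIF and 5, 5 and 6 in DIFF, a difference of 0.228 per 10000.

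The remaining windows overlapped between the states. *Lhx2* differed by 0.088 per 10000 (exact permutation p = 0.3, n = 3) and *Otx1* by 0.0139 (exact permutation p = 0.9, n = 3). *Eomes* had 12, 5 and 5 peaks in PROLIF and 6, 6 and 10 in DIFF, and its difference of -0.0694 per 10000 (exact permutation p = 1, n = 3) became 0.15 without PROLIF replicate 1.

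**Figure D3:**
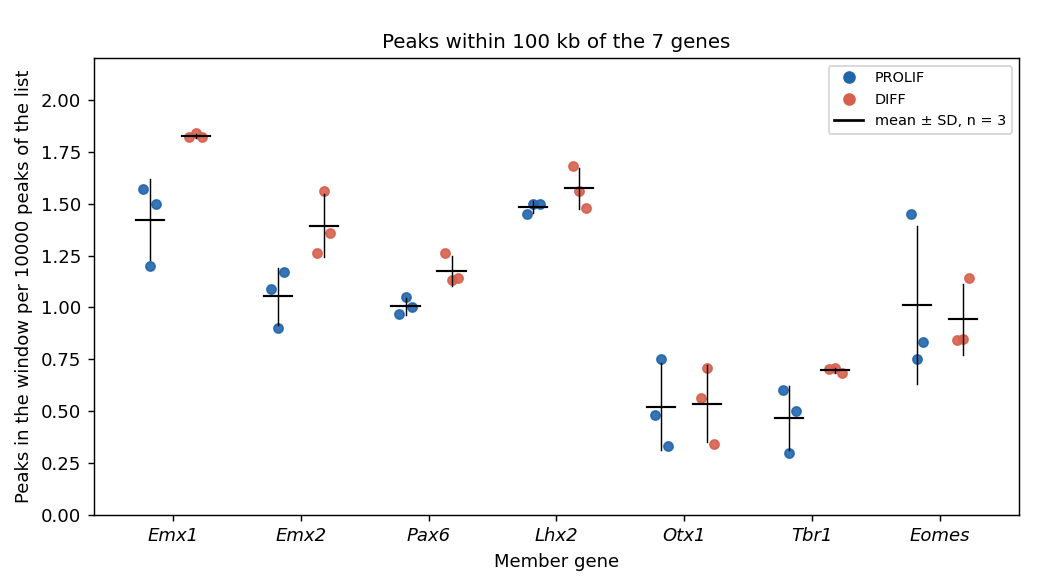
Peaks in the window of each gene per 10000 peaks of the library's list (y axis, from 0); points are libraries, black bars the mean ± SD of 3. In *Emx1*, *Emx2*, *Pax6* and *Tbr1* every DIFF point lies above every PROLIF point, and in *Lhx2*, *Otx1* and *Eomes* the states overlap.

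Occupancy by state was then compared for each region. No region of the 7 loci was PROLIF-only, that is, held by all 3 PROLIF lists and missing from every DIFF list, against 1.78% of the regions in the genome. The reverse, DIFF-only, was met by 4 of 87 regions (4.6%), against 3.47% in the genome, which is near the background. Without PROLIF replicate 1 the number was 10 of 81 (genome 6.39%), and without DIFF replicate 1 it was 8 of 85 (genome 5.96%). When same-numbered libraries were taken as pairs, with a peak in 1 state alone in at least 2 of 3 pairs and the opposite in none, a looser rule, there were 15 DIFF regions (17.2%, genome 11.1%) and 2 PROLIF regions (2.3%, genome 6.29%).

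The 4 DIFF-only regions lay in the windows of *Emx1*, *Emx2*, *Lhx2* and *Tbr1*. At *Emx1* the region (chr6:85226643-85227131), whose sequence is shown above, had percentiles of 37.7, 37.8 and 73.7 in DIFF replicates 1, 2 and 4, the deepest library being the highest. At *Lhx2* the region (chr2:38366140-38366497) in a *Lhx2* intron had 33.7, 44.2 and 56.8, and lay 2160 bp from the start of the predicted gene *Gm13584*. At *Emx2* the region (chr19:59400664-59400957), between genes and 57.5 kb upstream of the start, was weak, at 29.3, 2.80 and 24.2.

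The strongest of the 4 was at *Tbr1* (chr2:61747541-61747735), 55.3 kb upstream in an intron of *Psmd14*, which encodes a proteasome subunit. Its percentiles were 69.3, 55.8 and 67.6 and its fold enrichment 6.56 to 7.55. Of the 201 bases at its summit, 47.8% were masked as repeats, with a run of 29 A bases, and the uniqueness of reads there was not tested. None of the other 3 had a masked base in that window.

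Another 6 regions had a peak in every DIFF library and in 1 PROLIF library, which was PROLIF replicate 1 in each. They lay at *Emx1* (55.6 and 28.2 kb upstream), *Emx2* (78.1 and 71.0 kb upstream), *Lhx2* (84.8 kb downstream) and *Tbr1* (the intronic region described with the promoters). Together with the 4 above they made 10 of 87 regions (11.5%), against 6.74% in the genome. Without DIFF replicate 1 the number was 16 of 85 (genome 10.8%). PROLIF replicate 1 had the longest list and the highest background pileup of its state. In the other direction, a peak in every PROLIF library and at most 1 DIFF library, the genome had 3.38% and the 7 loci a single region (1.15%). The number was 4 of 86 without PROLIF replicate 4 (genome 6.52%) and 2 or 3 when a DIFF library was left out (genome 4.91% to 6.35%). The single region was 73.5 kb downstream of *Lhx2* (chr2:38412732-38412993), with percentiles of 60.5, 49.4 and 55.1 in PROLIF and 20.0 in DIFF replicate 4.

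**Figure D4:**
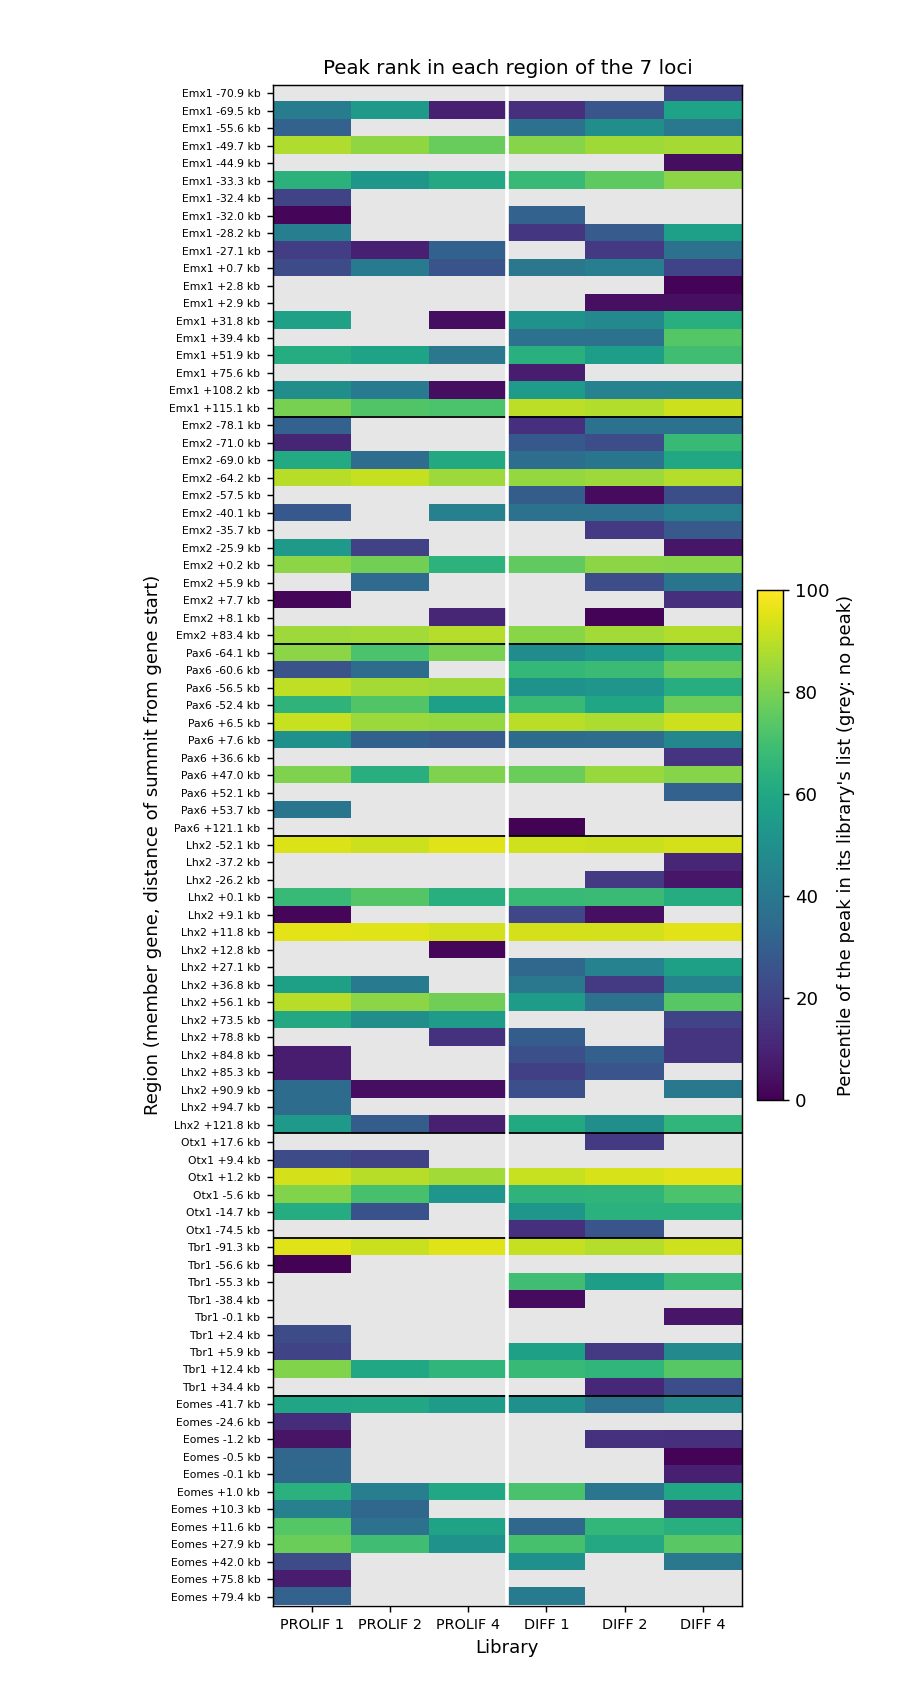
Percentile of the strongest peak of each library (columns) in each of the 87 regions (rows, by gene and distance from its start), coloured from 0 to 100; grey marks no peak. Rows filled across are the 30 constant regions, and most rows that are filled in part hold dark, low-ranked peaks.

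The rank of the 30 constant regions was compared last. Over these, the median difference of DIFF minus PROLIF was 0.824 percentile points, against 2.25 for the 40164 constant regions of the genome. In 4 of the 30 (13.3%) every DIFF library ranked below every PROLIF library, against 11.7% in the genome. In 2 of the 30 (6.67%) every DIFF library ranked above, against 21.1%. Each of these 6 reached p = 0.1 in the two-sided exact permutation test, the smallest that 3 against 3 allow.

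The widest separation was at the *Pax6* region 56.5 kb upstream (chr2:105611857-105612675). Its percentiles were 90.4, 86.5 and 85.4 in PROLIF and 51.5, 52.5 and 62.4 in DIFF. The PROLIF libraries lay close together and well above all DIFF libraries, with means of 87.4 ± 2.61 and 55.5 ± 6.04 (SD, n = 3), a difference of -32.0 points.

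The *Pax6* region 64.1 kb upstream (chr2:105604615-105605200) followed the same pattern. It stood at 82.7, 71.6 and 79.9 in PROLIF and 48.7, 52.6 and 64.4 in DIFF, a difference of -22.9 points. Between and beside them, within introns of the same antisense gene, lay a region 60.6 kb upstream (chr2:105608100-105608586) with 25.7 and 35.4 in PROLIF replicates 1 and 2, no peak in PROLIF replicate 4, and 66.5, 68.3 and 77.6 in DIFF. The region 52.4 kb upstream (chr2:105615937-105616803) overlapped between the states, at 56.4 to 72.7 in PROLIF and 58.7 to 77.3 in DIFF. Between 64.1 and 52.4 kb upstream of *Pax6*, then, adjacent regions ranked in opposite directions by state, while the *Pax6* promoter did not separate the states.

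At *Lhx2*, the intergenic region 56.1 kb downstream (chr2:38395042-38395739) had 89.2, 82.6 and 78.2 in PROLIF and 55.0, 37.8 and 74.1 in DIFF. DIFF replicate 4 came within a few points of PROLIF replicate 4, and the difference of means was -27.7 points. When peaks were ranked by fold enrichment the states overlapped, with a difference of -23.4 points. Its lowest percentile over the 6 libraries, 37.8, was the highest among the distal constant regions of *Lhx2*, although in DIFF the region 121.8 kb downstream had the higher mean (58.7 against 55.6).

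The *Eomes* region 41.7 kb upstream (chr9:118436288-118436650), in an exon of the noncoding gene *4933432G23Rik*, had 59.0, 59.9 and 55.1 in PROLIF and 50.2, 37.8 and 46.9 in DIFF, a difference of -13.0 points. It was weaker than the *Pax6* and *Lhx2* regions in every PROLIF library.

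The regions that ranked higher in every DIFF library were both at *Emx1*. The region in *Sfxn5* 115.1 kb downstream (chr6:85302174-85303230) had 79.5, 72.8 and 71.7 in PROLIF and 90.0, 88.5 and 92.4 in DIFF, with means of 74.7 ± 4.20 and 90.3 ± 1.98 (SD, n = 3), a difference of 15.7 points. The other, 33.3 kb upstream at the pseudogene *Spr-ps1* (chr6:85153996-85154463), had 64.2, 53.0 and 60.3 in PROLIF and 67.7, 75.2 and 82.5 in DIFF, a difference of 16.0 points. Reads at a pseudogene can be split with its parent gene, here *Spr*, which lies in the same window.

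**Figure D5:**
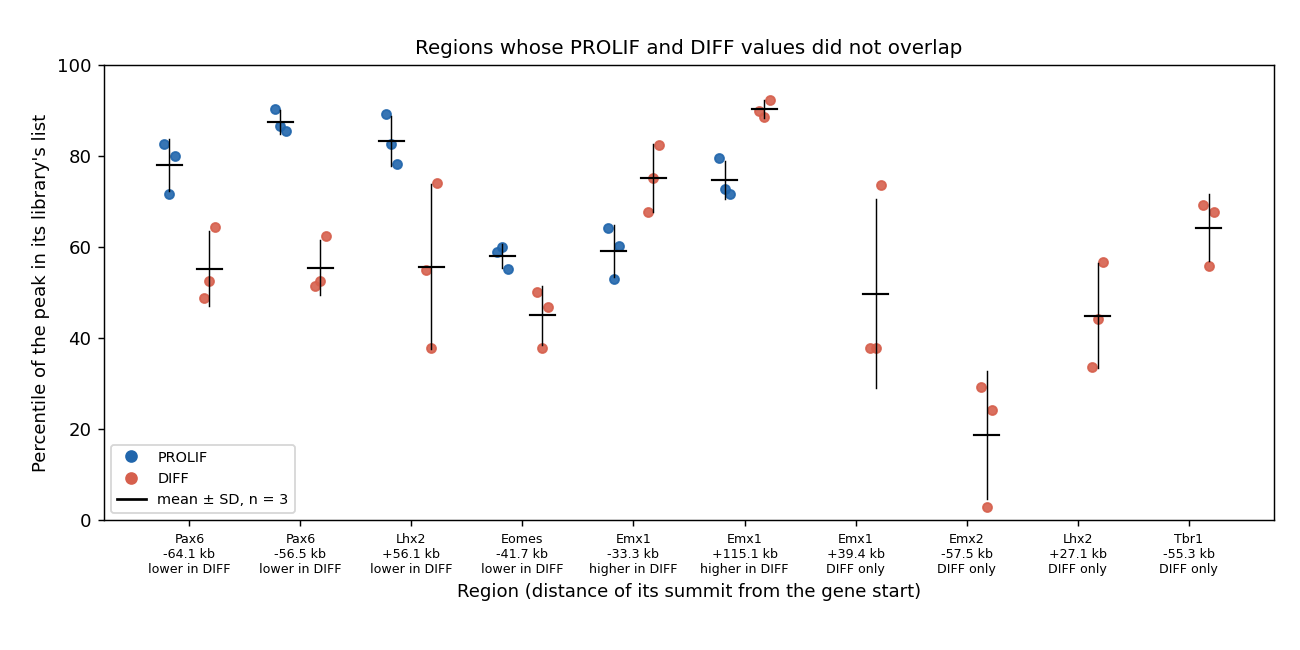
Percentile of the peak (y axis, 0 to 100) in each library for the 10 regions whose states did not overlap or that were DIFF-only. Regions are named by gene and distance from its start, points are libraries and black bars the mean ± SD of 3. The 4 regions on the left lie lower in DIFF, the next 2 lie higher, and the last 4 have no PROLIF points.

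The strength of the list mattered to these regions. Among the strongest 20000 peaks of each library, 21 regions of the 7 loci remained, and 3 of these (14.3%) had a peak in every PROLIF and in no DIFF library, against 5.68% of the 28256 regions then found in the genome. They were the *Pax6* regions 64.1 and 56.5 kb upstream and the *Lhx2* region 56.1 kb downstream. The cut was made on the same ranks that separated the states at these regions, so this count restates that separation. None of the 21 had a peak in every DIFF and in no PROLIF library, against 4.6% in the genome.

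For each gene the distal constant region with the highest lowest percentile over the 6 libraries was also taken. At *Emx2*, *Pax6*, *Tbr1* and *Otx1* its states overlapped. At *Emx2* it lay 64.2 kb upstream (chr19:59393894-59394809), at 85.5 to 91.3 in PROLIF and 84.1 to 89.0 in DIFF, in an intron of *Gm33756*. At *Pax6* it lay 47.0 kb downstream of the first start in an intron of *Elp4* (chr2:105715284-105716193), the neighbouring gene whose introns are known to hold *Pax6* enhancers, at 63.1 to 80.6 in PROLIF and 77.6 to 84.5 in DIFF. In every PROLIF library the region 56.5 kb upstream ranked above it. At *Tbr1* it lay 12.4 kb downstream of the start, just past the gene end (chr2:61814902-61816044), at 59.9 to 81.1 and 65.9 to 73.9. At *Otx1* it lay 5.6 kb upstream in an intron of *Ehbp1* (chr11:22008099-22009063), at 52.6 to 81.0 and 64.9 to 71.8.

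Short motifs were counted, as a description, within 100 bp of each summit on both strands. A homeodomain core (TAATTA) was present in 1 of the 87 regions (1.15%) against 4.08% of all regions, and an OTX-type site (TAATCC) in 2 (2.3%) against 4.52%. A T-box site (AGGTGTGA) was present in 1 region (1.15% against 0.457%). SOX-type letters were present at shares near those of the genome, with ACAATG in 8 (9.2% against 11.6%) and ACAAAG in 17 (19.5% against 20.2%). The same held for the E-boxes CAGATG (13.8% against 17.3%) and CAGCTG (19.5% against 19.6%) and for the NFI-type site TTGGCA (18.4% against 18.3%). The AP-1 site TGANTCA was present in 7 regions (8.05% against 8.21%). Among the 30 constant regions, AP-1 and the homeodomain core were in none, against 6.56% and 3.11% of all constant regions. The NFI-type site was in 8 of the 30 (26.7% against 17%) and the T-box site in 1 (3.33% against 0.292%). The median GC content around the summit was 54.2% in the 7 loci and 50.2% in the genome.

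Of the regions whose ranks separated the states, the *Pax6* region 56.5 kb upstream held both SOX-type motifs and both E-boxes once each, shown in capitals above. The *Lhx2* region 56.1 kb downstream held CAGCTG at 2 places, ACAAAG and TTGGCA. The *Emx1* region 115.1 kb downstream held TTGGCA alone among the motifs searched. A match is a string of letters and was not tested for binding.

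Other genes of the dorsal telencephalon were counted for context. Of 23, 17 had a promoter peak in all 6 libraries and 2 had none, *Neurod6*, a gene of maturing pyramidal neurons, and *Wnt3a*, a signal of the cortical hem. The other 4 had a promoter peak in some libraries, namely *Dmrt3* in 1, *Fezf1* in 2 PROLIF and 3 DIFF, *Fezf2* in 1 PROLIF and 2 DIFF, and *Neurod2* in 1. Their windows held 427 regions, with 3 PROLIF-only (0.703%) and 13 DIFF-only (3.04%). Of 9 genes of the ventral telencephalon, 7 had a promoter peak in all libraries, *Gsx2* had none and *Nkx2-1* had peaks in 2 libraries of each state. Their 99 regions held 2 of each kind (2.02%). Among all protein-coding genes the share with a promoter peak in every library was 64.4%, as given above, and neither list was tested against it.

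Among 7 close relatives of the members, *Otx2* and *Pax8* had no promoter peak in any library, and 2 had one in all 6. *Pax4*, known for pancreatic endocrine cells, had no promoter peak in PROLIF and one in every DIFF library, at percentiles of 46.9 to 70.9. The 119 regions of their windows included 9 DIFF-only regions (7.56%), against the 3.47% of the genome given above.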

How the data were processed

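ATAC-seq peak lists of 6 *Srr2* del/del libraries were used, with state and number taken from their labels. The authors used Cutadapt for adapters, Trimmomatic for quality, Bowtie2 to map pairs to GRCm38 (mm10), Picard for duplicates and MACS2 for narrow peaks of each library on its own (no model, FDR of 0.05). Versions, read extension and any shift for the transposase are not given in the sources used here, and each can move peak edges. Signal below the caller's threshold leaves no peak, so a missing peak does not show closed chromatin.

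The deposited score was not used. The deposited fold enrichment is the ratio of a peak's pileup to its local background, and the deposited −log10 p and q refer to that same background. Ranks were taken within a list only. Read totals were not used here, and the background pileup is percentile 1 of the backgrounds that fold and p of the peaks imply under a Poisson model.

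Genes and start sites came from GENCODE M21. Windows were the gene body with 100 kb on each side, and promoters lay within 3 kb of a start site. Regions were peaks merged where they overlapped by 1 bp or more. Their offsets in kb from a gene start were measured at the summit of the best-ranked peak. Exons and introns were assigned by overlap of the whole region. The 7 genes, each promoter region, the constant distal region of each gene whose lowest percentile was highest, every state-only region, and genes of the lists without a promoter peak or with a state-only one were named by rule. The other regions named were chosen after their values were seen. Members and lists were chosen with earlier results of these data known. State labels were permuted exactly over libraries, two-sided.

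The study describes its ATAC-seq as paired with RNA-seq of the same cultures. Neither it nor the labels say whether same-numbered libraries of both states share a culture. In case they do, same-numbered libraries were also taken as pairs, tested by sign flips. Deviations of rank from the state mean were also correlated over 39088 constant autosomal regions. The correlations were 0.055, 0.153 and 0.0122 for the pairs numbered 1, 2 and 4, and -0.113 to 0.0614 between other numbers. The largest was that of replicate 2. Deviations from a mean of 3 libraries depend on each other, so these values cannot settle which libraries are paired. The study describes its cultures as independent biological replicates, and p-values measure the spread between these libraries. The steps were tested on simulated lists with planted regions. Software was Python 3.11.15 with scipy 1.17.1, numpy 2.4.6, pysam 0.24.0, pandas 2.3.3 and matplotlib 3.10.9.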

Additional observations from a re-analysis of the deposited data

How the results depend on the processing

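Alternatives were a q of at most 0.01, lists cut to the shortest length (60006 peaks), the strongest 20000 peaks, windows of 50 kb, peaks that cover 50% or more of their region, ranks by fold, promoters of 1 kb, the replicate block, and leaving out a library at a time. The difference in peaks per 10000 over the 7 loci was 1.18, 0.919 to 1.5 when a library was left out, 0.671 with windows of 50 kb and -1.67 among the strongest 20000 peaks. Regions with a peak in all 6 libraries numbered 30, and 30 to 33 with a library left out, 18 with windows of 50 kb and 9 among the strongest 20000. DIFF-only regions numbered 4, and 4 to 10 with a library left out, 2 with windows of 50 kb, 0 among the strongest 20000 and 15 under the replicate block. PROLIF-only regions numbered 0 (genome 1.78%), and 0 to 1 with a library left out (genome 2.15% to 3.57%). They numbered 1 with lists of equal length (1.45%, genome 3.3%) and 1 with the cover of 50% (1.15%, genome 2.4%). They numbered 3 among the strongest 20000 (14.3%, genome 5.68%) and 2 under the replicate block (2.3%, genome 6.29%). The smaller windows and shorter lists hold fewer regions by construction. For the reversal among the strongest 20000 peaks the cause was not tested.

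Of 145 differences of single genes under the alternatives, 129 kept their sign and 16 did not. Peaks per 10000 changed sign among the strongest 20000 peaks for *Lhx2* (-0.667), *Otx1* (-0.333), *Pax6* (-0.833) and *Tbr1* (-0.167), with windows of 50 kb for *Otx1* (-0.08), and with a library left out for *Otx1* (-0.0806 to 0.128) and *Eomes* (-0.2 to 0.15). Promoter percentiles changed sign with a library left out for *Emx1* (-0.133 to 11.2), *Emx2* (-0.601 to 8.42) and *Eomes* (-5.72 to 10.1), with lists of equal length for *Eomes* (-3.55) and with ranks by fold for *Lhx2* (0.837). With pairs, the smallest sign-flip p is 0.25, and the block changed no other call. The 6 regions whose ranks separated the states kept their direction with a q of at most 0.01, lists of equal length and ranks by fold. Leaving out a library or changing the window cannot reverse regions chosen for states that do not overlap. Among the strongest 20000 peaks, only the *Emx1* region 115.1 kb downstream had a peak in all libraries. Under the cover of 50%, those at *Lhx2*, at *Eomes* and 33.3 kb upstream of *Emx1* lacked a peak in some.

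Among the strongest 20000 peaks, no library had a peak at any of the 4 DIFF-only regions. Those at *Lhx2* and *Tbr1* stayed DIFF-only with a q of at most 0.01, lists of equal length and the cover of 50%. That of *Emx1* kept 2 DIFF libraries under the cover, and that of *Emx2* kept 1 there and with lists of equal length. Leaving out a library, ranks by fold and promoters of 1 kb cannot undo the call. The *Tbr1* and *Emx2* regions lie outside windows of 50 kb. Counts of regions in every library of a state and at most 1 of the other, of windows with more or fewer peaks in every DIFF library and of separated ranks were recomputed under alternatives chosen after seeing the data. Without PROLIF replicate 1, constant regions ranked higher in every DIFF library numbered 8, against 2 (genome 37.3%, against 21.1%), and without PROLIF replicate 2 those ranked lower numbered 7, against 4 (genome 14.2%, against 11.7%). Without DIFF replicate 1 those in every DIFF and at most 1 PROLIF library numbered 16, against 10, and without PROLIF replicate 4 those in every PROLIF and at most 1 DIFF library numbered 4, against 1 (genome shares with the results). Leaving a library out loosens these rules by construction. Windows with more peaks in every DIFF library numbered 4 (10.1% of all genes), and 3 with windows of 50 kb (8.89% of all genes). They numbered 3 to 5 under the other alternatives, for which the share of all genes was not computed. Leaving a library out cannot lower this number. Among the strongest 20000 peaks they numbered 0 and those with fewer 2 (shares of all genes with the results). A peak list gives no reads at a place without a peak, so the depth of a library limits which weak regions it can show.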
